A study of Mus musculus with 18 samples.

Results

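The vehicle control myotubes of this series were C2C12 cells, an established line of mouse skeletal myoblasts, held for 5 days in 2% horse serum and then given 0.1% DMSO for 36 h. They were chosen by their labels alone (control, 0.1% DMSO) and make up 3 of the 18 libraries, 1 of 6 groups of 3. The other groups received dexamethasone, ginsenoside Rc or both, and no comparison with them is made here. All cells were of 1 immortal line with no nerve, vessel or immune cells added, and the labels do not say what share of the cells had fused. The labels number the libraries as replicates without saying whether they came from separate cultures, so the spread between them may be technical.

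When growth serum is withdrawn, C2C12 myoblasts leave the cell cycle, switch on myogenin and fuse into multinucleated myotubes that assemble sarcomeres, the repeating units of actin and myosin that shorten a muscle. Most sarcomere proteins are encoded by small gene families whose members are used at different times (embryonic, neonatal, adult) or in different fibres (fast, slow, cardiac). Which members a culture uses therefore describes how far, and along which path, its fibres have gone.

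The libraries held 36.5M, 44.0M and 38.4M expected counts (estimated fragments per gene, M for 1e6). Levels are given as CPM, counts per 1e6 counts of the library, as mean ± SD over n = 3 libraries, or as each library's value in the order of replicates 1, 2 and 3. For comparisons between genes a per-length level was used, the count per kilobase of the longest annotated transcript rescaled to a sum of 1e6 (TPM), except where a ranking is said to be by counts. A gene was called on at 1 CPM or more in all 3 libraries and off at 3 counts or fewer in each, a floor worth 0.0821, 0.0681 and 0.0782 CPM; the rest were called low, and genes at 100 CPM or more in all 3 were called high. The floor covers counting error only. Across the 12478 genes on, log2 CPM of any pair of libraries had a Pearson correlation over genes of 0.997 to 0.998, and the median coefficient of variation was 3.52% over the 9338 genes with a mean of at least 10 CPM. In bulk RNA, fewer cells of a type and less RNA per cell cannot be told apart, so every level below is an average over fused and unfused cells.

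Of 21772 protein-coding genes, 11757 were on (54%), 2605 were low and 7410 were off. The median level of the protein-coding genes on was 31.9 CPM, and 2121 were high. All protein-coding genes, whatever their class, held 95.9% of counts. Among 3840 lincRNA genes only 127 were on, and among 2449 antisense genes 98 were on. Nearest to the line stood 665 genes that were on with a mean between 1 and 2 CPM, and 1225 low genes whose mean was at least 0.5 CPM.

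A noncoding RNA headed the ranking by counts. H19, an imprinted RNA of fetal tissue and muscle (chromosome 7, 142575529 to 142578143, minus strand, GRCm38), measured 15531, 14868 and 16128 CPM and alone took 1.55% ± 0.0631 of all counts. It also stood above every protein-coding gene per length, at 17617 ± 869.9 TPM, with no library of H19 below any library of Acta1, the next in that order. The translation factor Eef1a1 was next by counts with 6785, 7237 and 6871 CPM. Fibronectin (Fn1), a matrix protein, had 6772, 6275 and 6111 CPM, and skeletal alpha-actin (Acta1), the main thin filament protein, had 6158, 6395 and 5921 CPM. The libraries of Fn1 and Acta1 overlapped. The rest of the leading 20 joined sarcomere and muscle cytoskeleton genes (Myh3, Myh1, Tpm2, Mylpf, Des, Nes) to matrix genes (Col3a1, Sparc, Bgn), the growth factor carrier Igfbp5, glycolysis (Gapdh, Aldoa), translation (Eef2), the chaperone Hsp90ab1, mt-Co1 and 1 pseudogene. All 20 together held 9.22% ± 0.0651 of counts, and the leading 100 held 21.5% ± 0.0879.

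**Figure D1:**
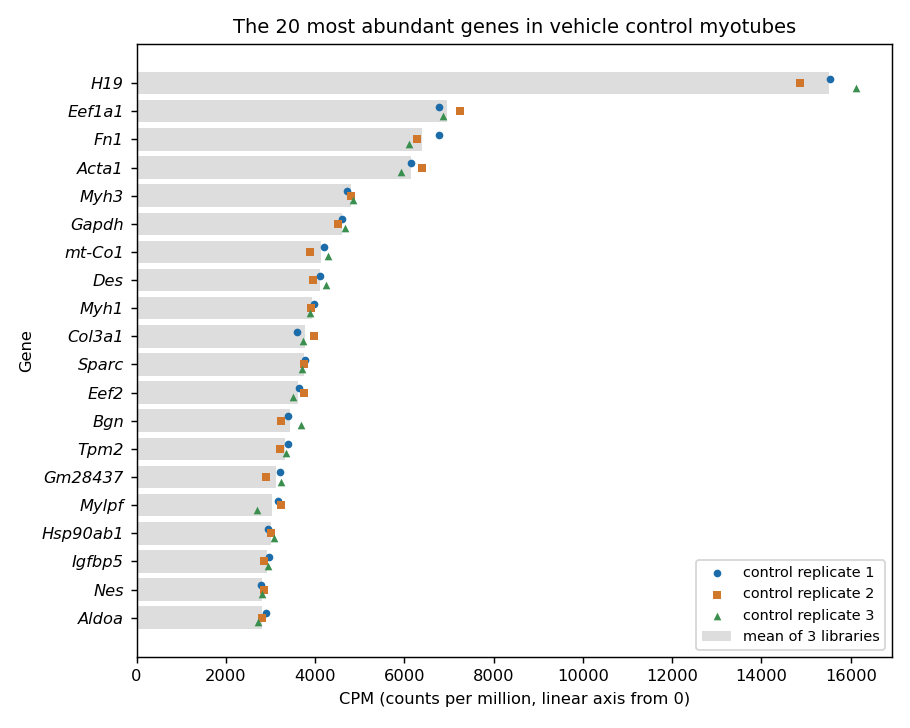
CPM of the 20 genes with the most counts, on a linear axis from 0. Grey bars are means of the 3 control libraries and symbols are the libraries; H19, at 15509 CPM on average, stands apart from Eef1a1 at 6964 CPM, and the libraries of each gene lie close together.

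Ranked per length among protein-coding genes, Acta1 led with 11054 ± 333 TPM. Mylpf, the fast regulatory light chain, followed with 10286 ± 922 TPM and overlapped both Acta1 and Eef1a1 at 10077 ± 313 TPM. Short transcripts moved up on this scale: the lectin Lgals1 had 8655 ± 343 TPM, thymosin beta 10 (Tmsb10), which binds actin monomers, had 8377 ± 429 TPM, and Tpt1 had 5231 ± 281 TPM. Tnnc1 and Myl1, the slow and cardiac troponin C and the fast essential light chain, stood at 6436 ± 170.3 and 6282 ± 125 TPM. Des, the intermediate filament of muscle, had 3520 ± 156 TPM, and Tnnt3 had 3601 ± 80.2 TPM. S100a4, a calcium-binding protein better known from fibroblasts and moving cells, stood among the leading 20 with 3905 ± 450.5 TPM.

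The share of RNA from the mitochondrial genome depended on where near-identical reads were placed. The 37 mitochondrial genes held 1.34% ± 0.0717 of counts. A run of 6 pseudogenes on chromosome 1, between 24612407 and 24616197, carries copies that match mitochondrial genes at 99.71% to 100% over at least 294 aligned bases, and these held a further 0.822% ± 0.0525. The copy of mt-Co3, Gm28437, was listed at 3218, 2893 and 3247 CPM, while mt-Co3 itself was listed at 176 CPM on average. In the same way Gm28661 was listed at 2427 CPM against 24.4 CPM for mt-Co2, and Gm10925 at 2265 CPM against 112 CPM for mt-Atp6. The copy of mt-Co1, Gm29216, was listed at 64.4, 69.7 and 0 CPM. Gm10222 was listed at 142 CPM against 34.3 CPM for mt-Nd4l, and Gm28438 at 225 CPM against 325 CPM for mt-Nd3. Sequence alone cannot say which copy such reads came from, so the deposited levels of all mitochondrial genes with such a copy are uncertain. With the copies added, mitochondrial genes held 2.16% ± 0.124 of counts. Cytosolic ribosomal protein genes (77) held 2.76% ± 0.149, sarcomere genes (53) held 4.91% ± 0.0838 and collagen genes (44) held 1.28% ± 0.0464. The sarcomere set took in thick filament, M-band, thin filament and giant protein genes, with all 4 tropomyosins. It left out the Z-disc list, whose 27 genes summed to 13144 ± 185 CPM.

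Myosin heavy chain, the motor of the thick filament, was present in embryonic, neonatal, fast and slow forms at once. Of 14 myosin heavy chain genes 11 were on, beside 54% of all protein-coding genes. Embryonic Myh3 measured 2025, 2059 and 2111 TPM, and adult fast IIx myosin, Myh1, measured 1692, 1661 and 1675 TPM, so the libraries did not overlap. Fast IIb (Myh4) had 442 ± 9.92 TPM, neonatal Myh8 had 226 ± 5.11 TPM, slow Myh7 had 170.2 ± 4.07 TPM and fast IIa (Myh2) had 65.6 ± 5.21 TPM. Of the summed per-length level of 9 sarcomeric genes, Myh3 gave 44.1% ± 0.693, Myh1 35.8% ± 0.396 and Myh4 9.44% ± 0.251, while all the others gave under 5% each. No neighbours in this order overlapped. The order of the leading pair rested on the length used: with the mean length of coding transcripts Myh3 gave 36.9% and Myh1 38.9%. Myh6, the cardiac alpha form, had 21.9 ± 2.40 TPM and Myh7b had 14.2 ± 0.843 TPM. Myh13, of extraocular muscle, was low at 0.398 ± 0.138 CPM, and Myh15 had no count in any library. These genes share long stretches of sequence, and the counting program divides such reads by estimation.

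Cardiac and slow myosin genes carry microRNAs in their introns, and the H19 transcript carries another in its exon, so the host levels above bear on loci whose products poly-A libraries do not measure. The mature sequences are RefSeq's (GRCm38.p6), with the seed (bases 2 to 8) in capitals. The first pair below, hosted by Myh6 and Myh7 on chromosome 14, share a seed; the microRNA of Myh7b on chromosome 2 differs from that seed in its last base, and those of H19 on chromosome 7 are unrelated to it.
miR-208a-3p: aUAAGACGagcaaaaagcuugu
miR-208b-3p: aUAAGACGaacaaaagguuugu
miR-499-5p: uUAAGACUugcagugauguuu
miR-675-5p: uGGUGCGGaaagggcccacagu
miR-675-3p: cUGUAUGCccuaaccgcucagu
The hosts measured 51.6 ± 5.57 CPM for Myh6, 409 ± 12.4 CPM for Myh7 and 33.6 ± 2.24 CPM for Myh7b. Each host was on in every library, the H19 locus far above the others, and whether any of these microRNAs was made was not measured.

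In the thin filament, skeletal actin led. Acta1 gave 80.6% ± 0.657 of the per-length level of the 2 sarcomeric actins and cardiac Actc1 19.4% ± 0.657. Actc1, which embryonic skeletal muscle also uses, measured 2599, 2668 and 2712 TPM. Cytoplasmic Actb had 3169 ± 40.7 TPM, and smooth muscle Acta2, a gene of differentiating myoblasts as well as of smooth muscle, had 2791 ± 20.4 TPM. Actins are close paralogs, so these values carry the same uncertainty as the myosins.

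**Figure D2:**
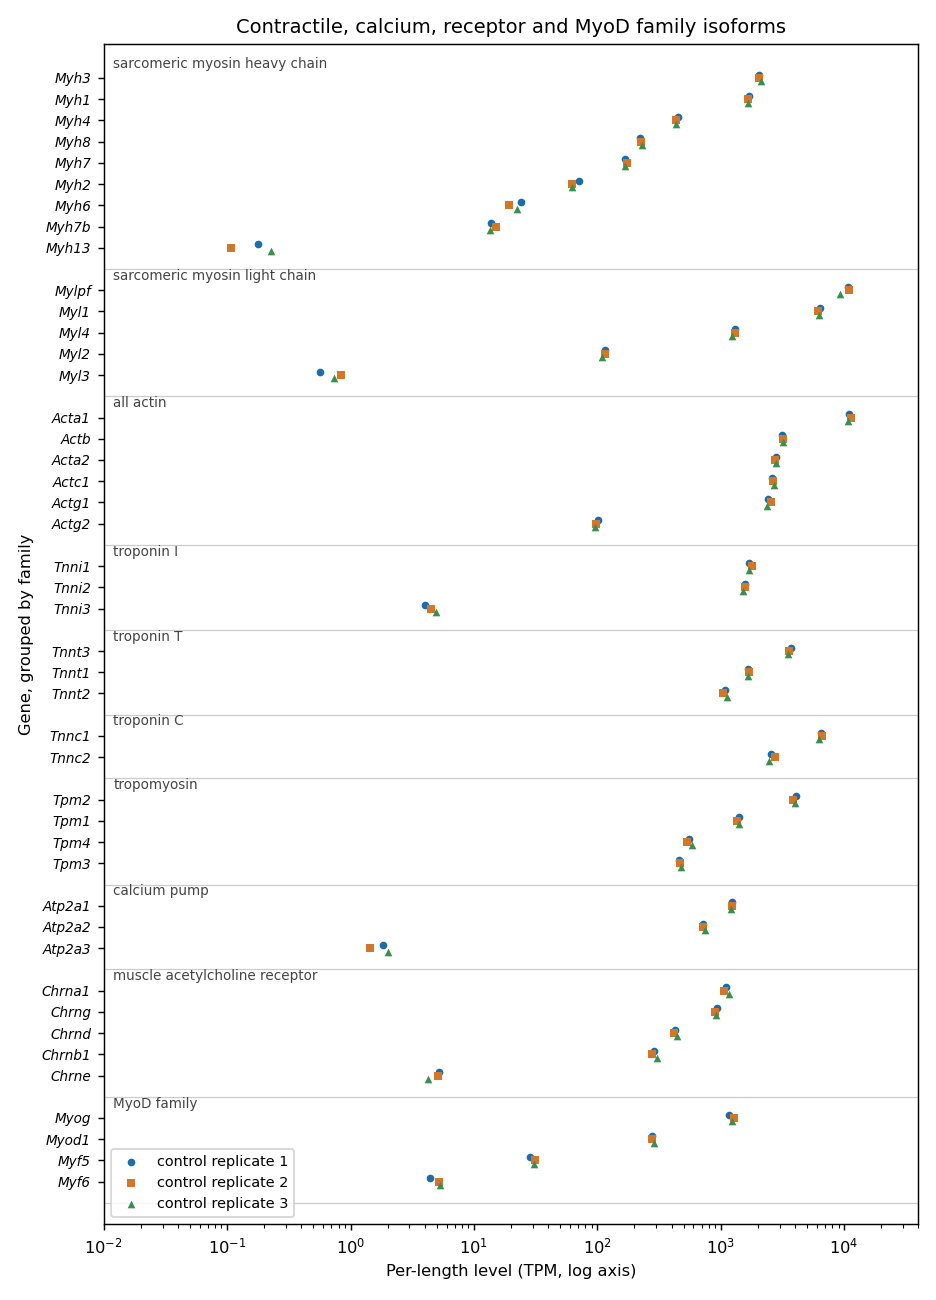
Per-length level (TPM, log axis) of each gene in 10 muscle gene families; symbols are the 3 control libraries. Within most families the members spread over more than 1 step of the log axis. Among the myosins they range from Myh3 at 2065 TPM to Myh13 at 0.171 TPM. With the longest transcript as length, slow and fast members of troponin I lie side by side at 1723 and 1554 TPM.

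The troponins, which make contraction respond to calcium, mixed fibre types. Slow Tnni1 gave 52.5% ± 0.583 of troponin I and fast Tnni2 47.4% ± 0.592, with 1693, 1784 and 1692 TPM against 1568, 1578 and 1515 TPM. This near balance rested on the length used. Tnni1 gave 52.5% with the union of exons, 66.7% with the mean length of coding transcripts and 72.7% with no length correction. Cardiac Tnni3 was barely on at 1.58 ± 0.149 CPM. For troponin T, fast Tnnt3 gave 56.7% ± 0.763, slow Tnnt1 26.3% ± 0.595 and cardiac and embryonic Tnnt2 17.0% ± 0.594. For troponin C the slow and cardiac gene led: Tnnc1 gave 71.3% ± 0.728 and fast Tnnc2 28.7% ± 0.728. Thus the fast gene led in troponin T and the slow gene led in troponin C, with no overlap between the libraries of neighbouring genes. Tnnt3 led at every length tried, but its share was not firm. It gave 66.0% with the union of exons, 42.7% with the mean length of coding transcripts and 42.0% with no length correction. The mean length of coding transcripts and no length correction also put Tnnt2 above Tnnt1. Tpm2 led the tropomyosins, which cover the myosin sites on actin, with 62.2% ± 0.448, and Tpm1 gave 21.7% ± 0.214.

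Light chains were those of fast and embryonic fibres. Mylpf measured 10705, 10924 and 9229 TPM and gave 57.2% ± 2.03 of the sarcomeric light chain level. Myl1 gave 35% ± 1.88, and Myl4, the embryonic and atrial form, gave 7.10% ± 0.155. Slow and ventricular Myl2 was on at 113 ± 3.08 TPM, while its partner Myl3 was low at 0.308 ± 0.0587 CPM and atrial Myl7 had no count.

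Thick filament and Z-disc genes were nearly all on, beside 54% of all protein-coding genes. In the thick filament and M-band list 8 of 9 were on, and the exception, cardiac Mybpc3, was low at 0.465, 0.182 and 0.182 CPM. Mybph, a small myosin-binding protein, had 2873 ± 28.7 TPM, far above the slow and fast forms of myosin-binding protein C, Mybpc1 at 71.2 ± 1.45 TPM and Mybpc2 at 62.8 ± 1.27 TPM. Among M-band proteins Myom2 led with 578 ± 1.32 TPM, above Myom3 with 162 ± 2.06 TPM and Myom1 with 134 ± 2.35 TPM. The giant proteins titin and nebulin, the spring and the ruler of the sarcomere, had 1283 ± 157 CPM for Ttn and 1134 ± 126 CPM for Neb, or 31.2 ± 3.81 and 131 ± 14.7 TPM per length. Both were highest in replicate 1 and lowest in replicate 2. In the Z-disc list 26 of 27 were on and 19 high: filamin C (Flnc) had 1716 ± 48.1 CPM, the stress-responsive Ankrd1 had 1049 ± 23.9 CPM and the chaperone Cryab had 738 ± 34.8 CPM. Of the calsarcins, which tie calcineurin to the Z-disc, the fast fibre genes Myoz1 and Myoz3 had 4.72 ± 0.558 and 0.132 ± 0.0185 TPM, and slow and cardiac Myoz2 had 155 ± 6.78 TPM. Actn3, the fast fibre alpha-actinin, had 808 ± 27.3 TPM and Actn2, the form of all fibres, 234 ± 2.97 TPM. Tmod4, the thin filament cap of adult skeletal muscle, was low at 0.854 ± 0.155 TPM, while Tmod1 had 154 ± 2.76 TPM.

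All 16 genes of the dystrophin complex, which ties the cytoskeleton to the matrix, were on, beside 54% of all protein-coding genes. Dystroglycan (Dag1) had 1267 ± 37.2 CPM. Dystrophin itself was sparse: Dmd had 6.58, 5.63 and 6.55 TPM, and its relative utrophin, which precedes it at the membrane in development, had 53.2, 49.6 and 52.7 TPM. Utrn gave 89.2% ± 0.480 of the pair, a ratio to Dmd of 8.32 ± 0.427. Dmd has a very long transcript, so its per-length level depends on how far poly-A selected fragments reach from the 3′ end, which was not tested.

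The machinery that links the action potential to calcium release was of the skeletal kind. The list held 37 genes, of which 34 were on (91.9%), beside 54% of all protein-coding genes, with 3 low and none off. The skeletal release channel Ryr1 had 167, 154 and 148 TPM, Ryr3 had 4.95 ± 0.375 TPM, and cardiac Ryr2 was low at 0.0219 ± 0.00436 TPM. In the same way the skeletal voltage sensor Cacna1s had 230.2, 224 and 229 TPM, while cardiac Cacna1c was low at 0.0215, 0.0178 and 0.0260 TPM. Per length Ryr1 gave 96.9% ± 0.0355 of its family, and no library of a cardiac relative came near it. The calcium pump, however, came from a fast and a slow gene: Atp2a1 gave 62.8% ± 0.709 of the per-length level and Atp2a2 37.1% ± 0.696. Calsequestrin, which stores calcium, was mainly of the cardiac and slow kind, with 1083 ± 38.5 TPM for Casq2 and 481 ± 18 TPM for Casq1. Membrane channels of the list differed: the sodium channel of adult muscle Scn4a had 57.0 ± 1.80 TPM and the potassium channel Kcnj2 14.2 ± 0.337 TPM, while the potassium channel Kcna7 had 1.29 ± 0.0761 TPM and the chloride channel Clcn1 0.998 ± 0.0900 TPM. Of the small peptides that curb the calcium pump, myoregulin (Mrln) was on at 2.05 ± 0.238 CPM, phospholamban (Pln) was off and sarcolipin (Sln) had no count. Parvalbumin (Pvalb), the calcium buffer of adult fast fibres, had 7.49 ± 0.323 CPM.

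The acetylcholine receptor was of the fetal form. All 5 muscle subunits were on, and the fetal gamma subunit stood far above the adult epsilon subunit that replaces it: Chrng measured 936, 899 and 921 TPM and Chrne 5.26, 5.15 and 4.23 TPM. Chrng gave 99.5% of the pair, or 99.2% with the union of exons and 99.8% with the mean length of coding transcripts. Chrna1, which binds the transmitter, had 1107 ± 49.8 TPM, Chrnd had 427 ± 10.5 TPM and Chrnb1 had 291 ± 11.8 TPM. Chrna1 and Chrng changed places, at 27.7% and 54.1% of the family, when the mean length of coding transcripts was used. Of 11 neuronal subunits only Chrnb2 was on, at 1.48 ± 0.319 CPM, while 8 were off. Of all protein-coding genes 54% were on and 34.0% off. All 11 genes of the postsynaptic apparatus were on although no nerve was present, among them the agrin co-receptor Lrp4 at 379.8 ± 4.41 CPM, the kinase Musk at 91.8 ± 6.11 CPM and the receptor anchor Rapsn at 81.4 ± 3.48 CPM. Acetylcholinesterase (Ache), which ends the signal, had 7.42 ± 0.667 CPM.

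Promoters of myotube genes often carry the E-box CAGCTG, a motif read by MyoD and myogenin. RefSeq promoters (250 bases before to 50 after the start, GRCm38.p6) were at hand for 16 of 20 myotube markers, and 11 of them (68.8%) held CAGCTG, which is the same on both strands, beside 18.3% of all 27025 genes with an entry. The share was 18.2% over the 9284 protein-coding genes on that had an entry and 15.7% over 5294 that were off. The markers were picked from general knowledge of muscle genes, so their share is not a finding about this culture. Shown are the promoters of the leading thin filament gene and of 2 receptor subunits, with CAGCTG in capitals and, for Acta1, also the TATAAA run and the serum response element (CArG box).
Acta1, chr8:123894726-123895025, minus strand: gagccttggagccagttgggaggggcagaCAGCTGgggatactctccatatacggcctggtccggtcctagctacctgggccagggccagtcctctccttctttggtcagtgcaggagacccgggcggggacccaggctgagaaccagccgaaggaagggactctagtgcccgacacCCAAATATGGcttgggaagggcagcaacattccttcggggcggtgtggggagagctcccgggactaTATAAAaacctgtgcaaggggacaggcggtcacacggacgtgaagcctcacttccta
Chrna1, chr2:73580289-73580588, minus strand: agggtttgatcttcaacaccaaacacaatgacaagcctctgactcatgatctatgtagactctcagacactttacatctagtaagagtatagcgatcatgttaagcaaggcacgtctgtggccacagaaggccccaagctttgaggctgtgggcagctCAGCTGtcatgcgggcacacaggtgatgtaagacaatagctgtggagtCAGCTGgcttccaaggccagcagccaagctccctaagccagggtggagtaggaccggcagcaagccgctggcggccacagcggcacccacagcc
Chrng, chr1:87205561-87205860, plus strand: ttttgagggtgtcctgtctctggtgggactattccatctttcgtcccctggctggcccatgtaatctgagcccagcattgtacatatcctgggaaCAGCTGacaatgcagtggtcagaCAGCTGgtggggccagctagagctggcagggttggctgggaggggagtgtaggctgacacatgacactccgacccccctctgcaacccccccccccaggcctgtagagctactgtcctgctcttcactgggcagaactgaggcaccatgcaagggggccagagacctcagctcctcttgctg
Acta1 held 1 match to CAGCTG in this window, and Chrna1 and Chrng held 2 each. TATAAA, searched on both strands, was in 8.54% of promoters of protein-coding genes on and in 24.0% of those off. A match to these letters is a description of the window and says nothing of whether a factor sat there.

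Of the MyoD family, the factors that commit cells to muscle, myogenin dominated. Myog measured 677, 748 and 708 CPM, Myod1 199, 200.5 and 206 CPM, Myf5 24.2 ± 1.34 CPM and Myf6 2.43 ± 0.230 CPM. Per length Myog gave 79.6% ± 0.717 and Myod1 18.2% ± 0.738 of the family. The late factor Myf6 (MRF4), which adult fibres hold at a high level, was thus the lowest of the 4 per length, at 4.43, 5.24 and 5.31 TPM. Mef2 partners were spread more evenly, with Mef2c at 40.04% ± 0.698, Mef2a at 32.0% ± 0.640 and Mef2d at 27.9% ± 0.477 of the per-length level. With the union of exons as length, Mef2d led instead with 47.3%. Of 22 homeobox, paired box and related factors 14 were on (63.6%), near the 54% of all protein-coding genes. In that list Pax3 was off, and Sox6, a repressor of slow fibre genes, was low at 0.122 ± 0.108 CPM.

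Fusion genes were mostly on, beside 54% of all protein-coding genes. The membrane fusogens myomaker and myomixer had 1271 ± 24.8 CPM (Mymk) and 72.9 ± 5.12 CPM (Mymx), and 19 of 22 fusion and adhesion genes were on. The laminin receptor subunit Itga7 had 1838 ± 54.3 CPM and M-cadherin (Cdh15) 418 ± 9.80 CPM. Off were Nphs1, Adgrb1 and Adgrb3. Of 19 satellite cell and Notch genes 17 were on (89.5%), also above that 54%. Pax7, which marks satellite cells and reserve cells, measured 39.2, 39.3 and 37.4 CPM, Megf10 had 462 ± 10.9 CPM and Notch3 had 143 ± 6.38 CPM, while the quiescence marker Calcr and Chrdl2 had no count in any library.

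Cell cycle genes were on beside most of their inhibitors, where 54% of all protein-coding genes were on. All 25 cyclin, kinase, replication and mitosis genes were on, with 102, 106 and 104 CPM for Rrm2, 56.6, 51.7 and 52.2 CPM for Mki67 and 19.6 ± 0.517 CPM for Cdk1. The inhibitor p21 (Cdkn1a), which myogenic exit from the cycle uses, had 2318, 2233 and 2333 CPM. Cyclin D3 (Ccnd3), the D cyclin of myotubes, had 711 ± 51.0 CPM, and Ccnd1 had 49.4 ± 0.774 CPM. Cdkn2a and Cdkn2b, neighbouring inhibitor genes, had no count in any of the 3 libraries, which allows at most 0.0821 CPM in the shallowest library. Whether the cycle genes came from unfused cells was not tested.

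Of 222 receptor genes in 7 lists 131 were on (59.0%), 39 low and 52 off, a share close to the 54% of all protein-coding genes. The lists differed among themselves: Wnt receptors were on in 14 of 15 and cytokine receptors in 20 of 24, but G protein-coupled receptors in only 30 of 72 and Toll-like receptors in 4 of 9.

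**Figure D3:**
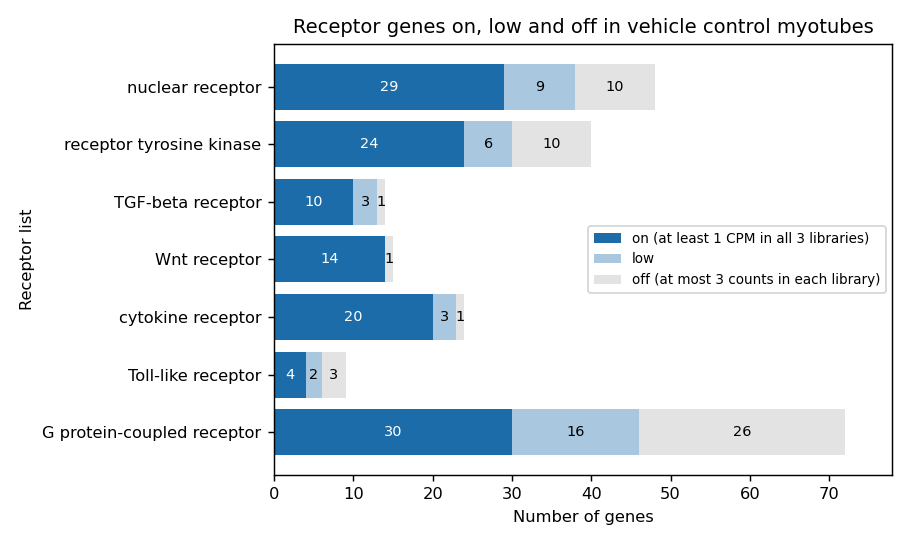
Numbers of receptor genes on, low and off in the 3 control libraries, by list; bars start at 0. The largest list, G protein-coupled receptors, has 26 genes off, while Wnt and cytokine receptors have 1 gene off each.

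Among steroid receptors the glucocorticoid receptor was the highest per length. Nr3c1, the target of the dexamethasone used elsewhere in the series, measured 40.3, 40.5 and 44.1 TPM. The mineralocorticoid receptor Nr3c2, which also binds glucocorticoids, was low at 0.191, 0.228 and 0.416 TPM, and no library came near those of Nr3c1. Estrogen receptor alpha (Esr1) had 10.2 ± 0.0504 TPM. Esr2 was off and Pgr low. Of thyroid, retinoid and vitamin D receptors 9 of 12 were on (75%), beside 54% of all protein-coding genes. Rarg had 129 ± 3.70 CPM, Thra 65.6 ± 3.60 CPM and Vdr 38.2 ± 0.782 CPM, while Thrb and Rxrg were low. Among lipid sensors Ppard, a regulator of fat burning in muscle, had 52.8 ± 1.40 CPM, whereas Ppara was low at 0.431 ± 0.0800 CPM. The clock repressors Nr1d1 and Nr1d2 had 79.3 ± 0.849 and 67.9 ± 2.04 CPM.

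Receptor tyrosine kinases and related growth factor receptors were on in 24 of 40 (60%), near the 54% of all protein-coding genes. The insulin receptor Insr had 62.2, 59.5 and 60.2 CPM and the IGF1 receptor Igf1r had 67.7, 62.9 and 63.2 CPM. Igf2r, which clears IGF2 and has no kinase, had 219 ± 10.1 CPM. Axl, a receptor for Gas6, had 339 ± 5.01 CPM, Pdgfrb had 303 ± 7.5 CPM and Fgfr1 had 224 ± 3.95 CPM. Erbb4, Ntrk2, Tie1 and Ros1 had no count, and Kit was off. Tgfbr2 led the TGF-beta receptors per length with 124, 118 and 126 TPM. For the myostatin route, Acvr2a was on with 41.3 ± 2.32 CPM and Acvr2b was low with 1.01, 0.750 and 0.704 CPM, its highest library just above the line. Per length, the TWEAK receptor Tnfrsf12a was the highest of the 222 genes in the 7 receptor lists, which leave out acetylcholine receptor and integrin subunits, at 319.9 ± 19.1 TPM.

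Cytokine signalling subunits were present for the IL-6 family: the shared chain Il6st had 281 ± 10.4 CPM, Lifr 116 ± 1.65 CPM and Il6ra 11.4 ± 0.650 CPM. The growth hormone receptor Ghr had 131 ± 0.578 CPM, while the related Prlr had no count and Lepr was low at 0.294 ± 0.00724 CPM. Muscarinic, serotonin, dopamine and opioid receptors were mostly off, 12 of 17 (70.6%), beside 34.0% of all protein-coding genes. Htr2b was the highest of them per length at 12.4 ± 0.696 TPM. The thrombin receptor F2r led the G protein-coupled receptor list per length with 142 ± 9.55 TPM, followed by Lpar1, a receptor for lysophosphatidic acid, with 56.9 ± 4.26 TPM.

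Secreted factors of muscle were on in 39 of 45 (86.7%), beside 54% of all protein-coding genes. Besides the matrix proteins Sparc (3743 ± 28.3 CPM), Bgn (3445 ± 228 CPM) and Fstl1 (843 ± 19.7 CPM), Igf2 had 674, 689 and 695 CPM and Igf1 116, 109 and 116 CPM. Follistatin (Fst), which blocks myostatin, had 176 ± 1.85 CPM, whereas myostatin itself (Mstn) was low at 0.0274, 0.0909 and 0.182 CPM. Of its relatives Gdf11 had 85.9 ± 1.71 CPM and Tgfb3 426 ± 12.5 CPM. Il6 was low at 0.372 ± 0.133 CPM, the irisin precursor Fndc5 had 59.3 ± 1.96 CPM, and Ostn, the only gene of the list that was off, had no count. Muscle ubiquitin ligases, which mark proteins for breakdown, were on in 9 of 9 with no atrophy stimulus, Fbxo32 at 99.0 ± 1.3 CPM and Trim63 at 32.0 ± 1.80 CPM.

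Fuel genes showed muscle and general isoforms side by side. Muscle creatine kinase gave 64.9% ± 0.262 and brain-type Ckb 34.5% ± 0.264 of the per-length level, Ckm with 307, 308 and 281 TPM and Ckb with 163, 166 and 148 TPM. The sarcomeric mitochondrial form Ckmt2 had only 1.53 ± 0.160 CPM. Muscle phosphofructokinase (Pfkm) gave 75.4% ± 0.343 of its family, but general Pgam1 gave 67.5% ± 0.996 against muscle Pgam2, and Hk1 gave 71.1% ± 0.822 against the muscle hexokinase Hk2 at 28.8% ± 0.826. For enolase the order of the general and the muscle gene turned with the length: Eno1 gave 53.6% ± 0.683 with the longest transcript, but Eno3 gave 65.2% with the union of exons. Ldha gave 97.8% ± 0.0914 of lactate dehydrogenase. Among glucose transporters the general one led: Slc2a1 had 119, 127 and 129 TPM and the insulin-responsive muscle transporter Slc2a4 (GLUT4) had 3.19, 3.08 and 2.63 TPM. Over the lengths tried Slc2a1 gave 95.3% to 96.4% of its family. Respiratory chain subunits with a heart and muscle form were mainly in the general form, with Cox6a1 at 68.2% ± 1.40, Cox7a2 at 85.8% ± 1.55 and Cox8a at 79.9% ± 1.86 of their pairs. The liver form of the mitochondrial fat importer, Cpt1a, gave 80.6% ± 0.918 of its family and the muscle form Cpt1b 3.19% ± 0.704. Myoglobin (Mb) was high at 550.4 ± 15.3 CPM, and the mitochondrial co-activator Ppargc1a was on at 2.88 ± 0.186 CPM.

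Positional genes split by cluster, where 54% of all protein-coding genes were on. Hox genes, which record where along the body axis a cell arose, were on in 9 of 11 for cluster A and 8 of 9 for cluster C, but in 0 of 10 for cluster B and 0 of 9 for cluster D. Hoxc10, a gene of the lower trunk and hindlimb, was the highest per length with 92.3, 83.7 and 97.2 TPM. Hoxc11 had 34.3 ± 1.92 TPM and Hoxa10 33.0 ± 1.22 TPM. In cluster D all 9 genes were off and 8 of them had no count at all. In cluster B the only genes above the floor were Hoxb3, at 0.202 ± 0.0288 CPM, and Hoxb4, just under the line for on, at 1.31, 1.16 and 0.991 CPM. Of limb genes Tbx15 had 261 ± 6.58 CPM and Shox2 56.0 ± 3.20 CPM. The hindlimb gene Tbx4 was on at 2.93 ± 0.229 CPM, the hindlimb gene Pitx1 was off, and the forelimb gene Tbx5 had no count.

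**Figure D4:**
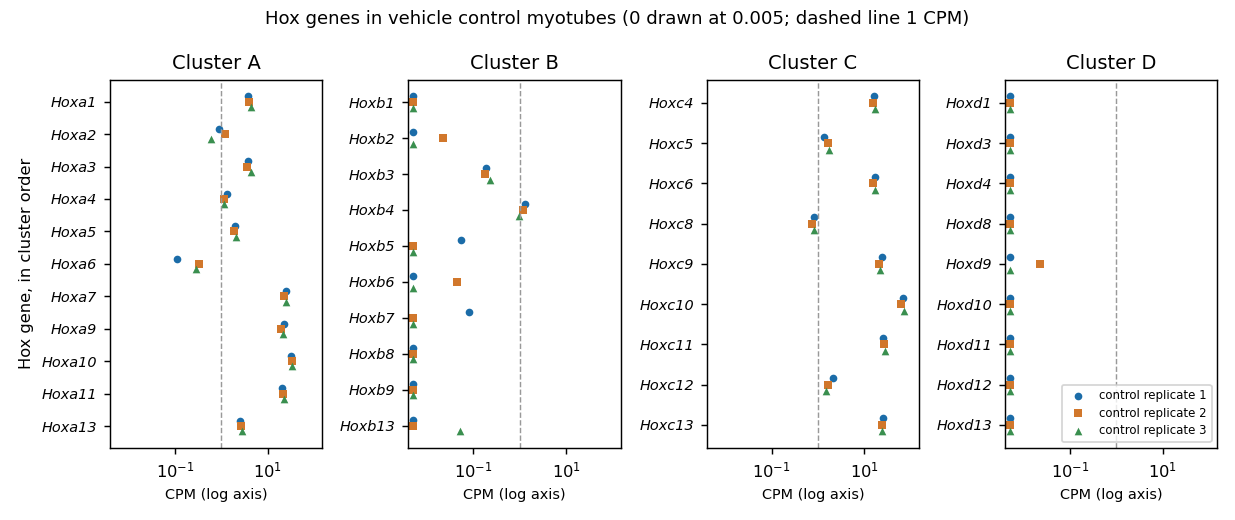
CPM (log axis) of the Hox genes by cluster, in cluster order; symbols are the 3 control libraries, values of 0 are drawn at 0.005 and the dashed line marks 1 CPM. Clusters A and C hold genes up to 67.0 CPM (Hoxc10), while clusters B and D lie near or at 0 apart from Hoxb3 and Hoxb4.

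The label was set beside marker lists. These were chosen with earlier results of these data known, so they are no independent check of it. Des is in both the myotube list and the smooth muscle and pericyte list. All 20 skeletal myotube markers were on and 19 were high, the exception being Mymx. Of 146 markers of 13 other cell types 44 were on (30.1%), 35 low and 67 off (45.9%). Among all protein-coding genes 54% were on and 34.0% off. Of the 44 markers on, 16 were in the fibroblast and matrix list and 7 in the smooth muscle and pericyte list. The first of these lists had 19 genes, 11 of them high, among them Col3a1 at 3587, 3984 and 3734 CPM, Col1a2 at 1836 ± 67.7 CPM and Postn at 405 ± 13 CPM. The fibroblast surface marker Thy1 was off and Tcf21 had no count, while Pdgfra was on at 15.6 ± 0.262 CPM. Smooth muscle genes shared with developing skeletal muscle (Acta2, Tagln, Des) were high, but the smooth muscle myosin Myh11 was low at 0.103 ± 0.0710 CPM and its activator Myocd was off. Whether matrix RNA came from myotubes or from unfused cells was not tested.

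**Figure D5:**
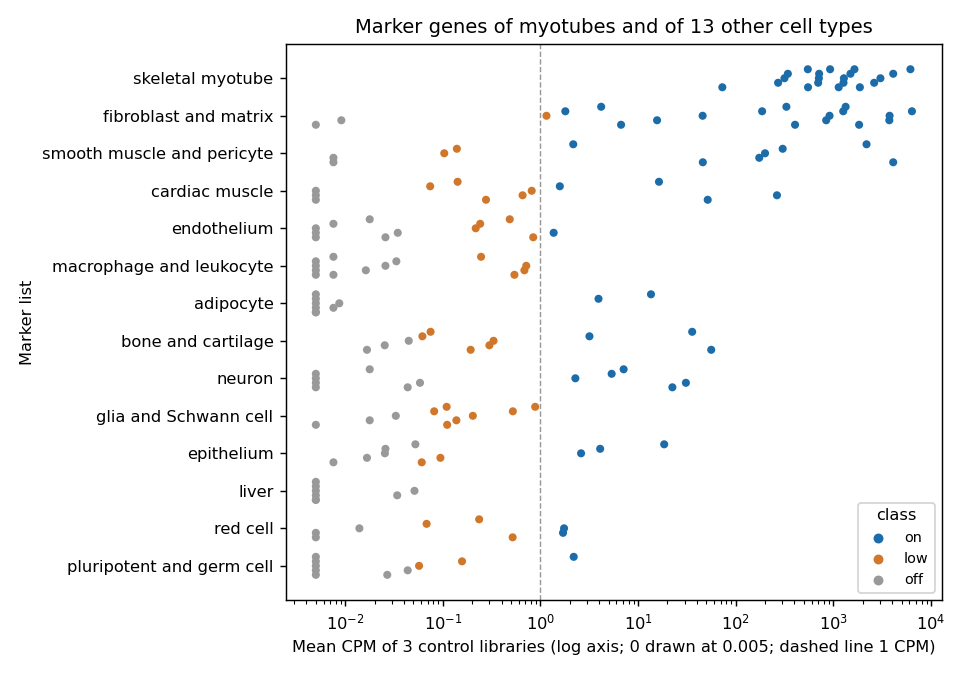
Mean CPM (log axis) of each marker gene over the 3 control libraries, by list; colours give the class, values of 0 are drawn at 0.005 and the dashed line marks 1 CPM. The 20 myotube markers lie between 72.9 CPM (Mymx) and 6158 CPM (Acta1), and no macrophage, glia or liver marker is on.

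Markers of the remaining types were mostly sparse, beside 54% of all protein-coding genes on. Of 12 cardiac markers 4 were on, among them Myh6, Gata4 at 16.4 ± 0.605 CPM and Tnni3; Tbx20 and Hand2 had no count. Among 12 endothelial markers only Vwf was on, at 1.36 ± 0.218 CPM. None of 13 macrophage and leukocyte, 10 glial or 8 liver markers was on, and Alb, Afp and Ttr had no count. Runx2 at 35.8 ± 1.86 CPM and Sox9 at 56.1 ± 2.95 CPM were on in the bone and cartilage list, whose matrix genes Acan, Col2a1 and Bglap were low or off. Of 12 neuronal markers 5 were on (41.7%), not far below that 54%. Per length they were led by the tubulin Tubb3 at 42.9 ± 1.85 TPM and Map2 at 9.31 ± 0.649 TPM. The neuronal nuclear gene Rbfox3 had no count and Snap25 was off. The epithelial list of 10 had 3 on, 2 low and 5 off, and the adipocyte list of 10 had 2 on and 8 off. Keratin 19 (Krt19), which is found at the muscle membrane as well as in epithelia, had 18.5 ± 1.01 CPM. It was the only member of the epithelial list with a mean of at least 10 CPM, and Epcam was low. Alpha-globin was barely on, with 1.74 ± 0.335 CPM for Hba-a1 and 1.70 ± 0.497 CPM for the near-identical Hba-a2.

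Few genes varied between the libraries. Of the 9338 genes with a mean of at least 10 CPM, 90% had a coefficient of variation under 7.24%, and 31 (0.332%) exceeded 20%. The median that counting alone would give was 2.34%. Among protein-coding genes the most variable was Gm20388, a read-through model that spans many genes, with 14.7, 22.3 and 45.9 CPM. Lars2, a mitochondrial leucyl-tRNA synthetase, had 65.5, 127 and 53.7 CPM, and replicate 2 was the highest. The ribosomal RNA gene CT010467.1 had the same order of libraries, with 1323, 2954 and 849.6 CPM, and all genes annotated as rRNA held 0.132%, 0.295% and 0.0850% of counts; their part in the level of Lars2 was not tested. The cystine transporter Slc7a11 had 20.7, 11.8 and 19 CPM, lowest in replicate 2. The short mitochondrial genes with near-identical copies or overlapping neighbours, mt-Co2, mt-Atp8 and mt-Nd4l, were also among the 10 most variable.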

How the data were processed

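Poly-A RNA of C2C12 myotubes was sequenced as strand-directional libraries with paired reads of 100 bases, per the labels' protocols. The authors deposited 1 table of expected counts for 48795 Ensembl gene IDs in 18 libraries; the submitters' processing notes name the build GRCm38 (mm10) and, without their roles, RSEM 1.3.3, STAR 2.7.3a, Trim Galore 0.6.5 and FastQC 0.11.9. Which annotation, filters and strand setting were used is not given in the sources used here; levels of genes that overlap, or lie antisense to each other, are therefore uncertain. RSEM divides reads between near-identical genes by estimation, and 9.29% to 9.49% of values were not whole.

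The 3 control libraries were used as deposited, without rounding. GENCODE mouse release 21 (GRCm38) named 48435 IDs and gave coordinates and transcript lengths; the 360 others held 0.0186% to 0.0191% of counts. CPM is the expected count over the library's total times 1e6, with no composition scaling. The per-length level divides by the longest transcript's length. One group was described, so no test was run. Checked for a library deposited more than once, every pair differed by more than counting noise (chi-square per degree of freedom 5.19 to 10.3), which does not separate cultures from repeat preparations. Copies of mitochondrial genes were found with blastn 2.17.0 (identity of at least 95%). Python 3.11.15, pandas 2.3.3 and, for TMM factors, edgeR 4.0.16 were used. Scripts were tested on simulated data.

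Gene lists came from general knowledge and, like the group, were chosen with earlier results of these data known. Of the listed symbols, Strit1, Lncmyod, Linc-md1 and Rmst matched no ID. The text names the 20 genes highest in CPM and per length, members of the lists, and genes among the 10 most variable protein-coding ones. Alternatives were other thresholds, TMM scaling, other lengths and denominators, and leaving out each library. Some list members are not reported here.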

Additional observations from a re-analysis of the deposited data

How the results depend on the processing

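The number of genes on was 12478 and ranged from 11677 (at least 2 CPM) to 13368 (at least 0.5 CPM) over all alternatives, and the number off, 31288, ranged from 26240 (no count in any library) to 33674 (at most 10 counts). With protein-coding genes alone as the total, the leading 20 genes held 7.67%, sarcomere genes 5.12% and mitochondrial genes 1.23%; with nuclear genes alone the leading 20 held 8.93%. As shares of per-length levels the leading 20 held 14.8%, sarcomere genes 6.73%, mitochondrial genes 3.29% and ribosomal protein genes 6.66%. Counting the chromosome 1 copies, an alternative chosen after seeing the data along with leaving out pseudogenes (12193 genes on) and limiting the spread to protein-coding genes (3.49%), mitochondrial genes held 2.16%. The median coefficient of variation, 3.52% over genes of at least 10 CPM, was 5.99% over genes with at least 1 count in each library. Leaving out each library in turn gave 2.58% to 3.21% for the first of these. It moved no share by more than its SD, but a mean of 3 libraries cannot move that far, so this is no check. Of 32 gene families, 29 kept their leading gene with the union of exons, 29 with the mean length of coding transcripts and 31 with no length correction. The exceptions not given above were myosin binding protein C, where Mybpc2 gave 50.4% with the union of exons and 52.1% with the mean coding length, and the ADP/ATP carriers, where Slc25a4 gave 56.6% with no length correction. TMM factors from all 18 libraries lowered the CPM of named genes by about 3%. No paired analysis was possible because the results come from no test. Depth limits what off can mean: 3 counts were worth 0.0681 to 0.0821 CPM.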

Other observations

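Imprinted genes, which are read from 1 parental copy, differed by locus. Of 26 listed, 15 were on (57.7%, near the 54% of all protein-coding genes), 4 low and 7 off. Besides H19 and its neighbour Igf2, Gnas had 1388 ± 72.1 CPM, the zinc finger gene Peg3 had 353 ± 14.1 CPM and the growth inhibitor Cdkn1c had 11.1 ± 0.235 CPM. The Dlk1 and Meg3 locus, which is active in fetal muscle and satellite cells, was off: Dlk1, Rian, Mirg and Rtl1 had no count in any library, and Meg3 had 0.0274, 0.0681 and 0 CPM, at most 3 counts in each. The adaptor Grb10, which restrains insulin and IGF signalling, was low at 0.465, 0.5 and 0.782 CPM.

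Of the X and Y linked genes, Xist, the RNA that coats the inactive X chromosome, had 581, 527 and 547 CPM, and the Y genes Ddx3y, Eif2s3y, Kdm5d and Uty had no count. The nuclear RNAs Malat1 and Neat1 had 550.2 ± 45 CPM and 302 ± 28.1 CPM. Hotair, which lies in the HoxC cluster, was on at 2.88 ± 0.281 CPM, and Hottip, beside Hoxa13, was off although Hoxa13 was on at 2.67 ± 0.0951 CPM. The host transcript Mir133a-1hg was low at 0.094 ± 0.0225 CPM.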
